A study of Mus musculus with 2 samples.

Results

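The choroid plexus secretory and transport genes are 10 mouse genes, Ttr, Enpp2, Folr1, Kl, Aqp1, Clic6, Kcnj13, Otx2, Sostdc1 and Ecrg4, chosen by symbol out of the 32285 genes of the count matrices, where each symbol matched 1 row. They were measured in single cells of hippocampi from untreated 4-week-old mice, read from the 5′ end of transcripts on the 10x Genomics platform. One library came from wild-type mice and the other from Crlf3-mutant mice, which carry the L389P change in cytokine receptor-like factor 3. The pool behind a library was 4 hippocampi from 2 mice, and the cells were dissociated, freed of debris and myelin and sorted as live. The labels name no sex and no strain. With 1 library per genotype no difference could be tested and no p-value is given. Every interval is a 95% interval for counting error only and does not cover differences between animals, dissections or dissociations. Intervals of levels and of their ratios also leave out the spread between cells, so they are too narrow where cells vary widely.

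The choroid plexus is the epithelium that hangs in the brain ventricles and makes cerebrospinal fluid. Its cells move ions, water and vitamins from blood to fluid and secrete carrier proteins, enzymes and signalling antagonists into it. It lies against the hippocampus, so a dissected hippocampus can carry pieces of it. Among the genes described, Ttr encodes transthyretin, the carrier of thyroid hormone and retinol-binding protein, and Enpp2 encodes autotaxin, the secreted enzyme that makes lysophosphatidic acid. Folr1 encodes the folate receptor alpha. Kl encodes klotho, a membrane coreceptor for FGF23 that is also shed. Aqp1 encodes a water channel, Kcnj13 the potassium channel Kir7.1 and Clic6 a member of the chloride intracellular channel family. Sostdc1 encodes a secreted antagonist of BMP and Wnt signals, Ecrg4 a secreted peptide precursor, and Otx2 a homeobox transcription factor of the choroid plexus lineage.

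Start-site sequence is shown because Otx2 is the transcription factor among the 10 genes and most of the others moved together from cell to cell, with Otx2 apart from them. RefSeq promoter windows on GRCm38.p6 ran from 250 bases before to 50 bases after a start. They were taken for 5 of the 10 genes, in 8 windows of which Otx2 has several. Ttr was left out by rule before the search. The windows were searched for TAATCC, the core motif of Otx-type homeodomains, on both strands (GGATTA on the other strand). It was in 1 of the 8 windows, against 7.06% of all 32851 windows of that length. A match is a description of letters and not a binding site. The stretches below end at the base before the RefSeq start, and capitals mark the match.

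Otx2, chr14:48665110-48665335, minus strand: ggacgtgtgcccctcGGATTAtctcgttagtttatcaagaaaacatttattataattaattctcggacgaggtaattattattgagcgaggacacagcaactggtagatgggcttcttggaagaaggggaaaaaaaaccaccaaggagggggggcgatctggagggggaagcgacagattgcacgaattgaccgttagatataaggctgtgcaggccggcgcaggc

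Kl, chr5:150952487-150952606, plus strand: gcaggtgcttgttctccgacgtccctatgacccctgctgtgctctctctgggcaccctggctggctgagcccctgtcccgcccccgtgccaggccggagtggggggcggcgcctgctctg

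Kcnj13, chr1:87394730-87394849, minus strand: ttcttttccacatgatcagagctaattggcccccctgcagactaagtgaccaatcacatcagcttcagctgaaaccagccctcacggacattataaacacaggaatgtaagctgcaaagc

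Ecrg4, chr1:43730482-43730601, plus strand: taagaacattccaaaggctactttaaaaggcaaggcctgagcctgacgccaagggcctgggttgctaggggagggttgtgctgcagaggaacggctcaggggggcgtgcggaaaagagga

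The match lay 211 bases before one of the Otx2 starts, on the strand opposite to the gene. The windows of Kl, Kcnj13, Aqp1 and Ecrg4 held none. GC content of the windows shown ran from 46.0% for Kcnj13 to 67.3% for Kl. All 10 genes are protein-coding in GENCODE M21 on GRCm38. Of those with a window, Kl lies at chr5:150952607-150993817, Kcnj13 at chr1:87386363-87394729, Aqp1 at chr6:55336432-55348555, Otx2 at chr14:48657677-48673819 and Ecrg4 at chr1:43730602-43742578. Enpp2 lies at chr15:54838901-54952892, Folr1 at chr7:101858331-101870788, Clic6 at chr16:92485736-92541243 and Sostdc1 at chr12:36314139-36318452.

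The filters left 7098 wild-type and 5276 mutant cells, whose median depth was 6193 and 7385 UMIs. A UMI counts 1 captured transcript molecule. Cells were clustered without the 10 genes, and clusters were named from marker sets that hold none of them. The choroid plexus class had all 10 of its markers above 0 in both libraries. They summed to 3059 and 3186 CPM (UMIs per 1000000 UMIs of the class). The class was named from these same markers, so their levels are no separate check of the name. All 10 microglia and all 10 astrocyte markers were above 0 in it as well, the astrocyte ones summing to 111 and 167 CPM. Microglia markers in it summed to 490 and 601 CPM and ependymal markers to 542 and 635 CPM. The ependymal markers Ccdc153, Tmem212 and Sntn were at 0 in it in both libraries. The part of these other cell types' RNA in the levels below was not tested. In all, 64 barcodes occurred in both libraries.

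The choroid plexus class held 451 of 7098 wild-type cells, 6.35% (exact Clopper-Pearson interval 5.80% to 6.95%), and 160 of 5276 mutant cells, 3.03% (2.59% to 3.53%). The share was 2.10 times higher in the wild-type library. How much of the neighbouring tissue came with each dissection and the genotype cannot be told apart. Few cells of the class had Xist without a Y transcript. Where a cell had Xist but no Y transcript, it was in the class in 5 of 2870 wild-type and 2 of 2109 mutant cases. Where it had Y transcripts but no Xist, it was in the class in 216 of 2086 (10.4%) and 76 of 1760 cases (4.32%). Another 222 and 81 cells of the class had neither, and 8 and 1 had both. Levels in the class thus rest mostly on cells with Y transcripts and cells with no call, and cells are not assigned to animals. Each pool held 2 mice and many cells of both kinds. The levels and the share may therefore rest largely on 1 mouse per library, which was not tested.

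Ttr was by far the most abundant of the 10 genes in choroid plexus cells. It made up 22.1% (wild type) and 20.4% (mutant) of the UMIs of the class, at 221200 CPM (exact Poisson interval 220900 to 221600) and 204400 CPM (203900 to 205000). Enpp2 stood at 21980 and 23170 CPM, the first being 2.20% of the UMIs of the class. Ecrg4 followed at 2685 and 2552 CPM, and Kl at 1312 and 1279 CPM. The other levels were all under 1000 CPM, so the genes spanned over 3 orders of magnitude within 1 epithelium. UMIs are read at transcript starts and carry no length correction, and the capture of each gene's start was not measured.

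A middle group of 4 genes lay close together. Folr1 was at 738 CPM (716 to 761) in wild-type cells and 798 CPM (763 to 834) in mutant cells. Sostdc1 was at 677 and 688 CPM, Kcnj13 at 640 and 652 CPM, and Clic6 at 631 and 698 CPM. In the wild-type library the intervals of Kcnj13 and Clic6 overlapped, as did those of Sostdc1 and Kcnj13, while Folr1 lay above Sostdc1. In the mutant library the Clic6, Sostdc1 and Kcnj13 intervals overlapped. Otx2 was lower, at 258 and 246 CPM. Aqp1 was the lowest, at 70.9 CPM (64.2 to 78.2) and 63.2 CPM (53.7 to 74.0).

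**Figure D1:**
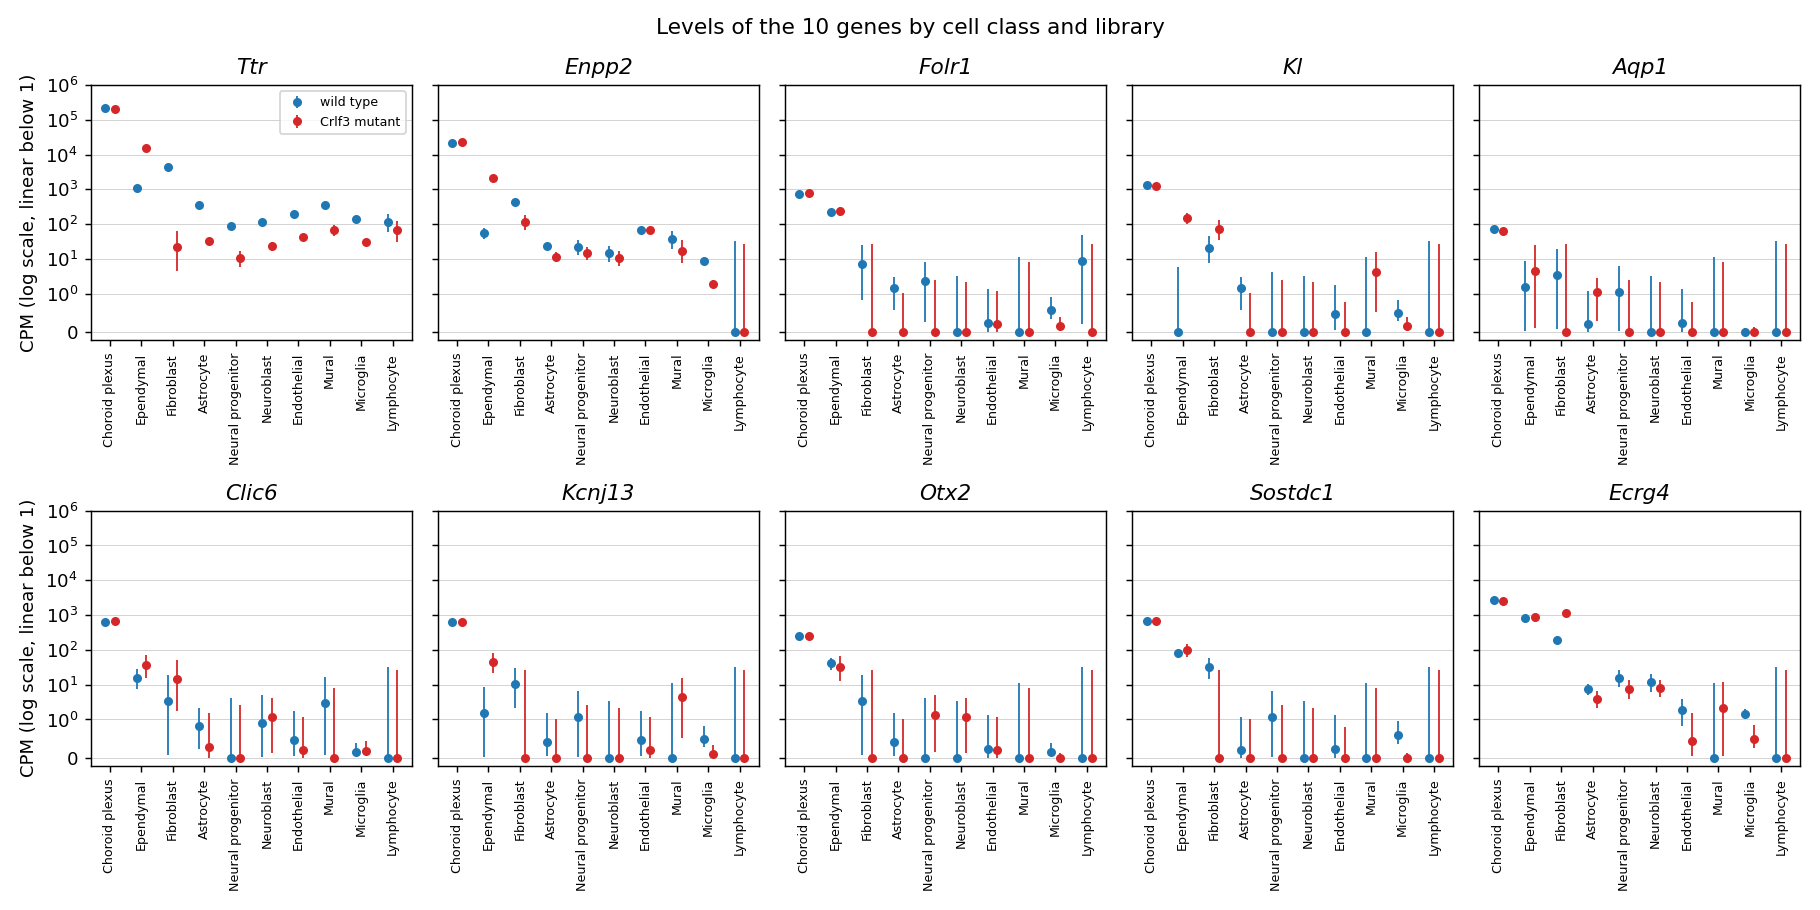
Level of each of the 10 genes (CPM on a log axis that is linear below 1) in 10 cell classes, with blue points for the wild-type and red points for the Crlf3-mutant library and bars for exact Poisson 95% intervals of counting error. Each gene is highest in the choroid plexus class in both libraries, and Ttr is above 10 CPM in every class. The next-highest point of each gene is in ependymal cells or fibroblasts, resting on 1 UMI for Aqp1. Both of these classes hold a few cells of high Ttr.

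Most choroid plexus cells carried UMIs of most of these genes. Ttr was found in all 451 and all 160 cells, Enpp2 in 450 and 159, Ecrg4 in 449 and 158 and Kl in 444 and 159. Otx2 was found in 84.5% and 81.9% of cells and Aqp1 in 47.5% and 50.6%. After each cell was thinned to 2000 UMIs, which left 445 and 157 cells, Aqp1 was found in 13.3% and 10.2% and Otx2 in 37.8% and 36.3%. In microglia, which should lack these genes, an Aqp1 UMI was found in 0 of 4418 and 0 of 3244 cells. An Otx2 UMI was found in 5 and 0 of them, at median depths of 6334.5 and 7720.5 UMIs against 10194 and 12357.5 in choroid plexus cells.

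The share of a cell's UMIs taken by Ttr varied widely. Wild-type cells ran from 0.681% to 50.7% around a median of 24.6%, and mutant cells from 1.83% to 49.5% around a median of 21.3%. The 10th and 90th percentiles were 8.26% and 36.9% in wild-type cells and 7.41% and 36.7% in mutant cells, so the ranges of both libraries overlapped over most of their length. Enpp2 had a median of 2.25% and 2.40% of a cell's UMIs. Its highest cells reached 8.14% and 12.3%.

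Between the libraries the 10 genes were at similar levels in choroid plexus cells. All 10 passed the filter on low values (at least 50 CPM and 30 UMIs in the higher library). None was higher and none was lower in the mutant library by 1.5 times, where 0.342% of the 2629 genes that passed the filter were higher and 0.266% were lower by that much. The median log2 ratio of the 10 genes (mutant over wild type, 10 CPM added to both) was -0.0073, beside 0.06 over all those genes. The members' count is near that background, and 0 of 10 is not a result about these genes alone.

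Among the secreted products, Ttr had a log2 ratio of -0.11 (interval -0.12 to -0.11) and Ecrg4 of -0.07 (-0.12 to -0.03). Enpp2 had one of 0.08 (0.06 to 0.09) and Sostdc1 of 0.02 (-0.06 to 0.10). Among the membrane proteins, Clic6 had the highest ratio, 0.14 (0.06 to 0.23), followed by Folr1 with 0.11 (0.03 to 0.19). Kl at -0.04, Kcnj13 at 0.03 and Aqp1 at -0.14 had intervals that held 0, and so did Otx2 at -0.07. The interval of Aqp1, -0.38 to 0.09, was the widest because it rests on 404 and 156 UMIs.

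In the 216 and 76 choroid plexus cells that had Y transcripts but lacked Xist, the log2 ratio of Ttr was -0.29 and that of Ecrg4 -0.20. Kl had -0.21 in those cells. None of the 10 genes passed 1.5 times there.

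**Figure D2:**
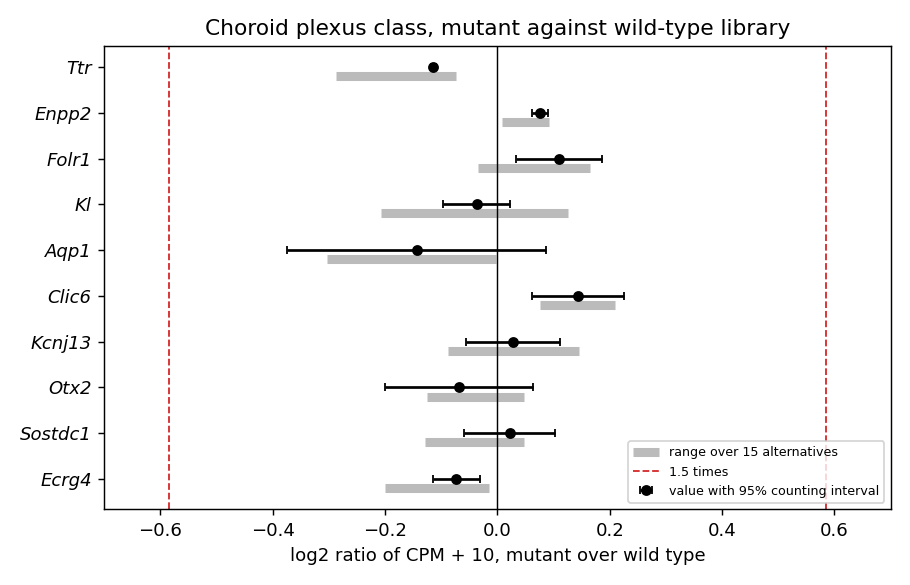
Log2 ratio of CPM + 10, mutant over wild type, in the choroid plexus class for each gene; black points carry 95% counting intervals, grey bars span 15 alternative settings and red dashed lines mark 1.5 times. All points and grey bars lie between the dashed lines, with Clic6 highest at 0.14 and Aqp1 lowest at -0.14.

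Other genes of the same tasks, in 11 lists, were compared in the same way. Of 13 measured genes of ion and water transport none passed 1.5 times, and the median log2 ratio was 0.0058. Slc12a2, which encodes the cotransporter NKCC1, had a ratio of -0.15, and Atp1b1, a sodium pump subunit, one of -0.19. Of 12 measured genes for other secreted proteins none passed. Trf, the iron carrier transferrin, came nearest, at 547 and 773 CPM, a log2 ratio of 0.49. None of 8 measured genes of vitamin and metal uptake and none of 3 of thyroid hormone and organic anion handling passed 1.5 times.

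Slco1c1, a thyroid hormone transporter of that list, was at 352 and 353 CPM in choroid plexus cells. It was higher in endothelial cells, at 1031 and 1173 CPM, where Ttr was low.

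Of 17 listed genes of BMP and Wnt signalling, which Sostdc1 antagonises, 4 were measured. Id3 was lower in the mutant library, at 220 and 135 CPM, a log2 ratio of -0.67. Id1, also a target of BMP signals, had a ratio of -0.49 and Bmp6 one of 0.11. The median of the 4 was -0.35. In the list of immediate early and dissociation response genes, 1 of 9 measured genes was higher by 1.5 times (Atf3, 0.72) and 1 lower (Fos, -0.63), with a median of -0.01. Id3, Atf3 and Fos were all higher in other classes. Id3 reached 2148 CPM in wild-type fibroblasts and 2233 CPM in mutant endothelial cells. Atf3 was at 2345 and 2114 CPM in microglia, and Fos reached 5687 CPM in wild-type fibroblasts and 4706 CPM in mutant ependymal cells. The part of those classes' RNA in these ratios was not tested. No gene passed 1.5 times among the 3 measured transcription factors of roof plate and ciliated epithelium, the 5 of junctions and keratins and the 3 hormone and serotonin receptors. Of the genes that act with klotho none of 9 reached the filter. Fgfr1, a receptor partner of klotho, was at 39.2 and 28.4 CPM in choroid plexus cells and at 253 and 264 CPM in astrocytes.

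Genes that act on the product of Enpp2 differed in where they were high. Lpar1, a receptor for lysophosphatidic acid, had 0 UMIs in choroid plexus cells of either library and was at 126 and 160 CPM in fibroblasts. Lpar6 was at 136 and 135 CPM in microglia. Plpp3, which degrades the lipid, was at 4058 and 4055 CPM in astrocytes, while Plpp1 was at 67.1 and 67.7 CPM in choroid plexus cells.

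At a finer clustering (Leiden resolution 2.0) the choroid plexus class split into 2 clusters. The first, led by Prlr, Spint2, F5, Defb11 and Lbp, held 314 wild-type and 111 mutant cells. The second, led by Calml4, 2900040C04Rik, Ppp1r1b, Hemk1 and Fabp3, held 137 and 49 cells and stayed unnamed by the marker rule. The first thus made up 69.6% and 69.4% of the class. The clusters were formed from the expression of the same cells, so the differences between them are descriptions.

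Of the 10 genes, 8 were lower in the second cluster in both libraries. Ttr was at 273000 CPM in the first and 109600 CPM in the second cluster of wild-type cells, and at 251200 and 99750 CPM in mutant cells. Enpp2 was at 26950 and 11270 CPM in wild-type and at 28100 and 12120 CPM in mutant cells. Folr1 was at 915 and 356 CPM, and at 1002 and 339 CPM. Kl had the smallest fold of the 8, 1.71 in both libraries, and Folr1 the largest in the mutant library, 2.90. Otx2 and Clic6 went the other way. Otx2 was at 217 and 348 CPM in the first and second cluster of wild-type cells and at 199 and 349 CPM in those of mutant cells. Clic6 was at 577 and 747 CPM and at 669 and 763 CPM.

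Since Ttr takes a large share of all UMIs, the genes were also scaled to the UMIs of genes other than the 10. On that scale Ttr, Enpp2, Folr1, Kl, Aqp1, Kcnj13, Sostdc1 and Ecrg4 were lower by at least 1.5 times in both libraries. Over all genes that passed the filter, 16.6% were lower between the wild-type clusters and 16.6% between the mutant ones, and 2.5% and 7.14% were higher. The median log2 ratio of the 10 genes was -1.57 and -1.58, beside 0.27 and 0.23 over all genes. Clic6 was then at 0.04 (interval -0.06 to 0.13) and -0.12 (-0.26 to 0.02), and Otx2 at 0.33 (0.19 to 0.48) and 0.48 (0.26 to 0.71). This scale lowers every gene's ratio by a like amount, so the values of Clic6 and Otx2 are read beside the medians over all genes given above. Clic6 lay below both medians, and the wild-type interval of Otx2 held that of its library.

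Other genes for membrane and secreted proteins were lower in the second cluster too. On the same scale 12 of 13 measured genes of ion and water transport were lower by 1.5 times in each library, with Slc12a2 at -2.14 and -2.20 and Car2, a cytosolic carbonic anhydrase, at 0.36 and 0.33 as the exception. Of 12 genes for other secreted proteins 11 were lower in each library. No ribosomal protein gene of 81 was lower or higher by that much, and of the measured transcription factors of the roof plate list none was lower. All 13 mitochondrially encoded genes were lower in each library, with a median log2 ratio of -1.99 in wild-type cells. The median mitochondrial share of UMIs was 2.73% and 2.04% in the first cluster and 0.878% and 0.631% in the second, and the median depth was 9737 and 11743 against 11876 and 14647 UMIs. The part of RNA quality in this split was not tested.

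**Figure D3:**
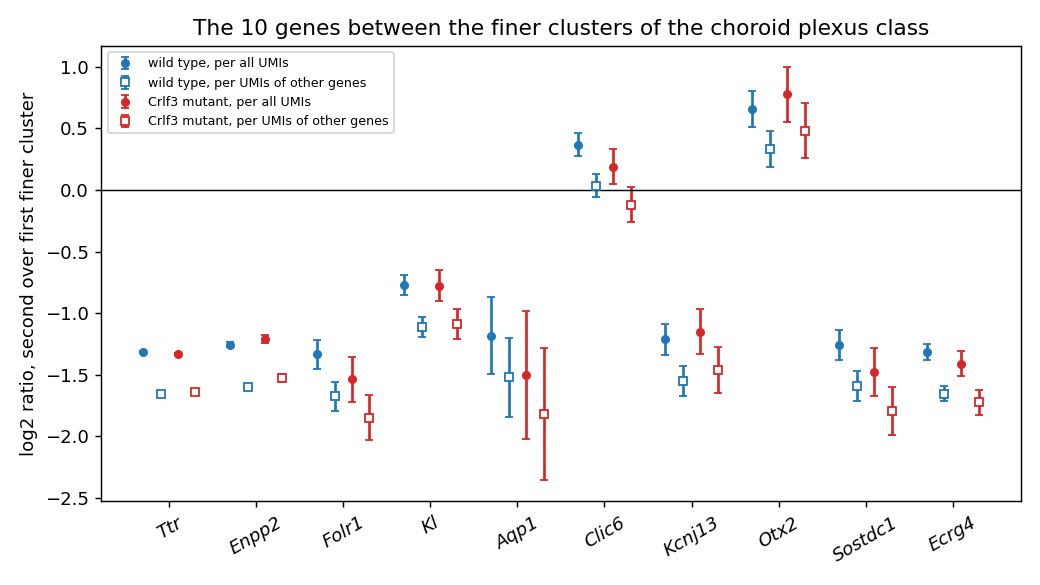
Log2 ratio of each gene between the second and the first finer cluster of the choroid plexus class, by library, per all UMIs (filled circles) and per UMIs of the other genes (open squares), with 95% counting intervals. Ttr, Enpp2, Folr1, Kl, Aqp1, Kcnj13, Sostdc1 and Ecrg4 lie below 0 in both libraries and on both scales, Otx2 lies above 0, and Clic6 lies around 0 on the second scale, which lowers every gene by a like amount.

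Cell by cell the genes followed Ttr in the same way. Across the 451 wild-type and 160 mutant cells of the class, Spearman's rho between a gene's share of the UMIs other than Ttr and the share of Ttr was 0.84 and 0.90 for Ecrg4. It was 0.80 and 0.86 for Enpp2, 0.72 and 0.88 for Folr1 and 0.50 and 0.64 for Kl. For Otx2 it was -0.26 and -0.36, and for Clic6 -0.13 and -0.12. The cells of a library share their depth and preparation, and the mitochondrial share of UMIs also followed Ttr, with 0.60 and 0.68.

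Within the first finer cluster the log2 ratios between the libraries ran from -0.12 (Ttr) to 0.21 (Clic6), and within the second from -0.42 (Aqp1) to 0.11 (Enpp2). The value of Aqp1 in the second cluster, -0.42 (interval -0.97 to 0.13), rested on 60 and 17 UMIs.

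Outside the choroid plexus, UMIs of these genes can come from free RNA of broken choroid plexus cells. The choroid plexus class held 99.3% and 99.1% of all Ttr UMIs, yet 47.1% of wild-type and 15.8% of mutant microglia carried a Ttr UMI. Microglia had 141 CPM of Ttr in one and 29.8 CPM in the other library, 4.72 times higher in the wild-type library. The ratio was 4.63 in endothelial cells, 4.90 in neuroblasts, 5.22 in mural cells and 8.47 in neural progenitors. It was 11.0 in astrocytes and 197 in fibroblasts. Without the 2 wild-type astrocytes and 1 wild-type fibroblast with Ttr at 1% or more of their UMIs, it was 4.62 and 3.64. Over all cells together Ttr was 2.13 times higher in the wild-type library. Over all cells outside the choroid plexus class the ratio was 1.79 and in lymphocytes 1.70. The 1.79 includes 7 wild-type and 2 mutant cells with Ttr at 1% or more of their UMIs. Mutant ependymal cells held 3384 Ttr UMIs, and their level fell from 15400 to 19.8 CPM without the 2 such cells among them. In ependymal cells the ratio was 0.071 with all cells and 4.06 without the few cells of high Ttr described below.

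In microglia the other genes kept roughly the proportion to Ttr that they had in choroid plexus cells. Per 1000 Ttr UMIs there were 10.3 Ecrg4 UMIs (interval 7.48 to 13.9) in wild-type microglia and 12.1 in choroid plexus cells. Folr1 had 4.09 (2.38 to 6.54) and 3.34, and Otx2 1.20 (0.390 to 2.81) and 1.17. Enpp2 and wild-type Clic6 were exceptions. Enpp2 had 63.0 (55.6 to 71.1) against 99.3 in wild-type cells, and 64.8 (48.1 to 85.4) against 113 in mutant cells. In wild-type microglia Clic6 had 1.20 (0.390 to 2.81) against 2.85, and Kl had 3.61 (2.02 to 5.95) against 5.93.

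A free RNA level was set for each class as its Ttr level times the proportion of the gene to Ttr in choroid plexus cells of the same library. A gene was counted as above it where its level was at least 2 times as high and its lower Poisson bound was above it, in both libraries. In microglia, mural cells and lymphocytes 0 of the 9 genes other than Ttr were above. In neural progenitors Ecrg4 was above, at 16.0 and 7.64 CPM, and so was Enpp2, at 21.8 and 14.6 CPM. In neuroblasts Ecrg4 was above, at 11.7 and 8.07 CPM. These low levels rest on 11 to 21 UMIs per library.

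In ependymal cells, the ciliated cells that line the ventricles, Ecrg4 and Folr1 were above it. A few cells in this class had much Ttr. Of the ependymal cells, 1 of 62 (wild type) and 2 of 22 (mutant) had Ttr at 1% or more of their UMIs. With them Ttr stood at 1090 and 15400 CPM in the class, and without them at 80.3 and 19.8 CPM. The 2 mutant cells also held other choroid plexus RNA: without them Enpp2 fell from 457 to 17 UMIs and Kl from 32 to 0. Without the wild-type cell Enpp2 stayed at 35 UMIs, Sostdc1 at 51, Aqp1 and Kcnj13 at 1 each and Kl at 0. Ecrg4 fell from 513 to 487 UMIs, Clic6 from 10 to 5, Folr1 from 140 to 137 and Otx2 from 26 to 25. The source of that cell's Ttr was not tested.

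Without the cells with Ttr at 1% or more, 6 of 9 genes were above the free RNA level in ependymal cells of both libraries. That level is computed from Ttr, so it falls by construction when cells are left out for their Ttr. For wild-type Enpp2 it fell from 108 to 7.98 CPM, while Enpp2 stayed at 35 UMIs. The higher count of genes is thus a description. Ecrg4 was at 782 CPM (interval 714 to 855) and 697 CPM (587 to 822), with UMIs in 49 of 61 and 20 of 20 cells. Folr1 was at 220 CPM (185 to 260) and 208 CPM (150 to 281), against a free RNA level under 1 CPM. Sostdc1 was at 81.9 and 79.1 CPM and Otx2 at 40.1 and 24.7 CPM, the last on 25 and 5 UMIs. Enpp2 was at 56.2 and 84.0 CPM. Clic6 rests on 5 and 2 UMIs.

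With all cells kept, Sostdc1, Otx2 and Clic6 were above the free RNA level in the wild-type library only. Enpp2 was then above it in neither library, at 0.508 times the level in wild-type and 1.19 times in mutant cells. The removal of high-Ttr cells was chosen after seeing the data. Kl, Kcnj13 and Aqp1 were not above the Ttr-based level in the remaining ependymal cells. With the lowest level over the other classes taken as free RNA, and all cells kept, Kcnj13 and Aqp1 passed too, and Kl did not. That lowest level was 0 CPM for each gene but Ttr in both libraries, so 1 UMI in each library was enough to pass. With all cells kept Aqp1 passed on 1 and 1 UMIs, and Kl had 0 UMIs in wild-type cells. This alternative therefore does not show a level above free RNA. Kl had 0 UMIs in 61 wild-type and 20 mutant cells, which allows up to 4.82 and 14.8 CPM, against 1312 and 1279 CPM in choroid plexus cells. Kcnj13 had 1 and 0 UMIs and Aqp1 1 and 0. 

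**Figure D4:**
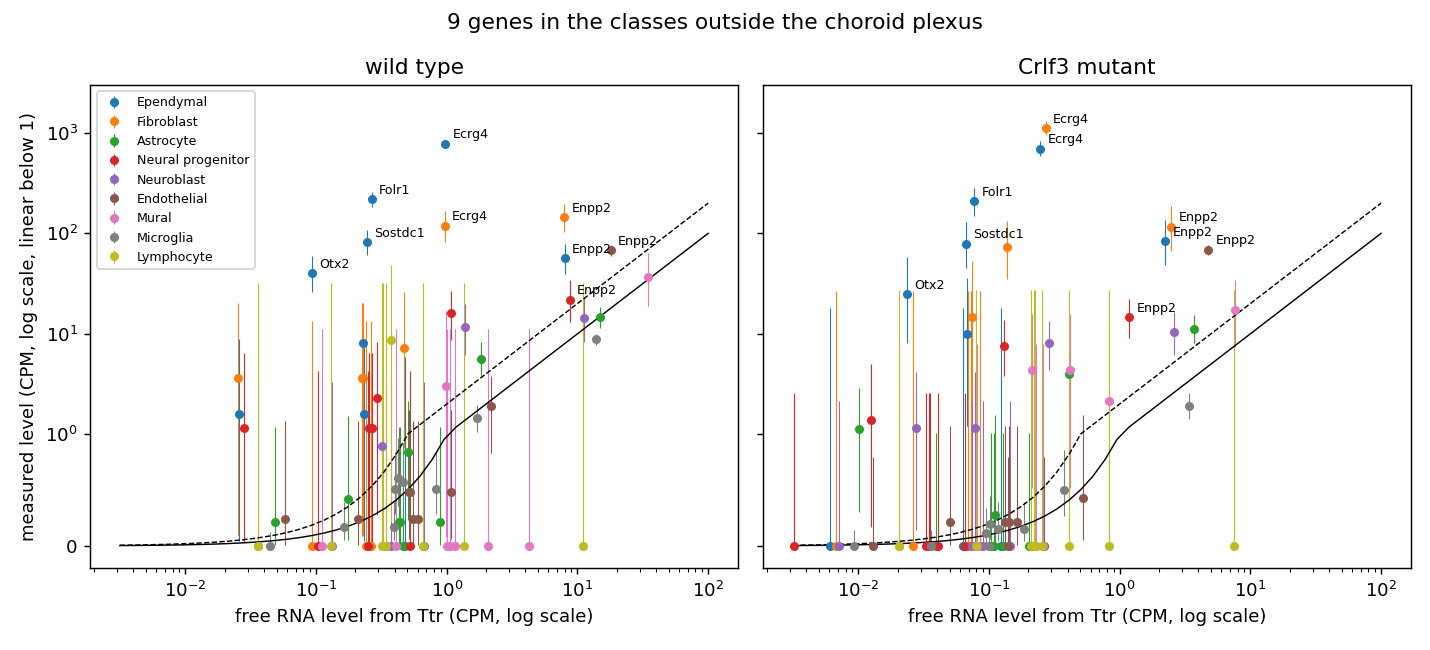
Measured level of the 9 genes other than Ttr (CPM, log axis that is linear below 1) against the free RNA level computed from Ttr (CPM, log axis) in the classes outside the choroid plexus, without cells with 1% Ttr or more; colours are classes, bars are 95% Poisson intervals, the solid line is equality and the dashed line 2 times. Leaving out those cells lowers the free RNA level by construction. Labelled points are above the free RNA level in both libraries and above 20 CPM in the wild-type library: Ecrg4, Folr1, Sostdc1, Otx2 and Enpp2 in ependymal cells, Enpp2 and Ecrg4 in fibroblasts, and Enpp2 in endothelial cells and neural progenitors.

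Enpp2 was above the free RNA level in endothelial cells. The 2 libraries had 69.4 CPM (61.6 to 77.9) and 68.5 CPM (61.1 to 76.4) there, although Ttr differed 4.63 times between the same cells. An Enpp2 UMI was found in 25.2% and 27.8% of endothelial cells, against 5.14% and 1.42% of microglia, at median depths of 4558.5 and 5271 UMIs.

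Fibroblasts were few, 30 and 13 cells. Without 1 wild-type cell with high Ttr, Enpp2 was at 145 and 116 CPM in them. Ecrg4 was at 119 and 1113 CPM, on 6 of 29 and 4 of 13 cells. The class pools 2 clusters. In the one led by Mgp and Dcn, with 20 wild-type and 4 mutant cells, Ecrg4 was at 169 and 2729 CPM, and in the other, with 10 and 9 cells, at 242 and 0 CPM. The first mutant value rests on 4 cells. Kl had 2 and 10 UMIs there. Ecrg4 was also at 227 and 215 CPM in a small unnamed cluster of 43 and 34 cells led by Fabp7, Ass1, Gas1 and Gfap.

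The genes whose pattern over the 10 classes of both libraries was most like the mean pattern of the 10 genes were Smim22, Epn3, Wfdc2, Ace and Pla2g5, followed by Krt18, Crb3, Pcolce2, Slc2a12 and Cab39l. Pearson's r ran from 0.99 to 0.95 over 20 values (10 classes in 2 libraries), among 2214 candidate genes, as a description. Cab39l was the most abundant of them, at 648 and 696 CPM in choroid plexus cells. Ace, the angiotensin-converting enzyme, was at 365 and 363 CPM, and Wfdc2, a secreted protease inhibitor family member, at 316 and 307 CPM. Krt18, an epithelial keratin, was at 333 and 312 CPM and was also found in ependymal cells at 120 and 95.6 CPM.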

How the data were processed

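Gene counts were made by the authors in Cell Ranger 6.1.1 on the mm10 mouse reference, per the labels' protocols; Partek is listed in the submitters' processing notes without a role. The values in the deposited matrices are raw UMI counts, 51328178 in 7713 wild-type and 43103469 in 5720 mutant barcodes. A barcode was kept (7246 and 5353) if it had 500 genes or more, 1000 UMIs or more and no more than 10% mitochondrial UMIs, and called doublets (148 and 77; Scrublet in scanpy 1.11.5, rate 0.06) were removed. Both libraries were clustered together on 2000 variable genes without the 10 genes, Crlf3 and sex-linked genes, with 30 components, 15 neighbours and Leiden resolution 1.0 (leidenalg 0.10.2). Clusters were named from marker sets; the scoring rule (score of at least 0.5, at least 3 markers, second class under 0.9 of the best) was set after seeing the data. Counts were summed per class and library and given as CPM. Intervals are exact Poisson, exact Clopper-Pearson, or from the counting variance for log2 ratios. Only those of log2 ratios were tried on simulated data, drawn as Poisson counts without spread between cells. A count of 0 allows 3 counts. Genes named were all 10 members, up to 4 measured genes per list with the largest ratio in the choroid plexus class, and 10 by likeness; partner genes in other classes and genes between the finer clusters were picked after their values were seen. Members and lists were chosen with earlier results of these data known. Promoter windows come from RefSeq (GRCm38.p6) and positions from GENCODE M21. Some genes that the naming rule met are not reported here.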

Additional observations from a re-analysis of the deposited data

How the results depend on the processing

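The 10 log2 ratios in choroid plexus cells were recomputed under 15 alternatives: other cell filters, called doublets kept, other clusterings or a class per cell, thinning, other scalings, another pseudocount and fewer cells. No value passed 1.5 times in any of the 150. Ttr, Enpp2, Aqp1, Clic6 and Ecrg4 kept their sign in all 15, while Folr1 changed it in 1, Kl and Otx2 in 2 each, and Kcnj13 and Sostdc1 in 5 each. The counts of genes past 1.5 times stayed at 0 under every alternative. The median moved by more than 0.079 only in cells that had Y transcripts but lacked Xist, to -0.088. That limit is the median distance from a gene's ratio to the ends of its own counting interval. Cells of the reverse kind (Xist without Y, 5 and 2 cells) were too few and were not run. The ratio of the choroid plexus shares ranged from 1.95 (stricter cell filter) to 2.15 (looser). In ependymal cells, 2 genes were above the free RNA level; 0 were at 5 times, 8 with the lowest level over the other classes as free RNA (all but Ttr and Kl), and 6 without cells with at least 1% Ttr, an alternative added after seeing the data like the one without the 5% of cells highest in a gene. Without the former cells the free RNA level falls by construction. The lowest level over the other classes was 0 CPM for each gene but Ttr, so 1 UMI in each library was enough to pass there. Median-of-ratios scaling shifted all genes by -0.06.
No paired analysis was possible because each genotype has 1 library.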
